A study of Homo sapiens with 12 samples.

Results

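The clustered histone genes were taken as the genes of the deposited count table whose symbol starts with HIST1H, HIST2H, HIST3H or HIST4H. There were 72 such genes among 22506 listed. They comprise 6 genes for the linker histone H1, 17 for H2A, 20 for H2B, 14 for H3 and 15 for H4. By cluster, 55 belong to HIST1, 13 to HIST2, 3 to HIST3 and 1 to HIST4. Of the 72, 8 had no read in any library and 55 held enough reads to be tested.

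RNA sequencing was done on 12 libraries from the human lung cancer lines H1703, H1299, CHAGO and CALU, all described in the series title as lung squamous cell carcinoma lines. Each line gave 1 library of tumor-initiating cells (TICs) with PRKCI knocked down, 1 of TICs without knockdown, and 1 of parental cells, which the labels call adherent. The PRKCI product, protein kinase C iota, belongs to the atypical protein kinases C. The sources used here do not say how PRKCI was knocked down, what the TICs without knockdown received or how the TICs were obtained. The 4 lines are the replicates of a state (n = 4), so errors measure the spread between lines, and there is no second culture of any line in a given state.

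PRKCI held 58.1, 25.8, 23.2 and 41.5 CPM in the knockdown TICs of H1703, H1299, CHAGO and CALU, against 342, 199, 608 and 237 CPM in TICs and 303, 309, 357 and 261 CPM in parental cells. CPM are read counts per mega (M) reads after TMM scaling. PRKCI was lower in the knockdown library of each line (log2 fold change −3.15, SE 0.37, edgeR adjusted p = 0.0489). This call was narrow, and was lost with any 1 line left out (edgeR adjusted p 0.0537 to 0.597). The libraries of H1703 and H1299 held 21.2 to 36.1 M reads and those of CHAGO and CALU 63.8 to 91.8 M, so depth followed the line and differences between these 2 pairs of lines cannot be told apart from depth. In the 6 libraries of H1703 and H1299 the squamous markers KRT5, KRT6A, KRT14 and DSG3 had no read and TP63 reached at most 0.225 CPM, while SOX2 held 1.04, 3.38 and 0 CPM in knockdown TICs, TICs and parental cells of H1703 and 6.09, 38.8 and 8.09 CPM in those of H1299. Of the epithelial markers, CDH1 had no read in these lines, against 826 to 1110 CPM in CHAGO, EPCAM and KRT19 reached at most 0.71 and 0.182 CPM, and KRT8 and KRT18 reached 7.2 and 21.9 CPM in H1299 and at most 0.0364 and 1.42 CPM in H1703. In CALU, KRT6A, DSG3 and SOX2 had no read, KRT5 and KRT14 reached at most 0.193 and 1.96 CPM, and TP63 held 2.73 to 45.2 CPM. CDH1 and EPCAM reached at most 4.35 and 23.9 CPM in CALU. KRT19, KRT8 and KRT18 held 112 to 237, 8.09 to 46 and 10.5 to 42.5 CPM there. Of the leukocyte markers, CD3E had no read in the 12 libraries, PTPRC and LYZ reached at most 0.704 and 0.129 CPM, and CD14 reached 4.06 CPM in CHAGO knockdown TICs. The marker CD68 ranged from 0.09 CPM in CHAGO parental cells to 809 CPM in H1703 knockdown TICs, and the part of these markers in the results was not tested.

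Clustered histone genes supply the histones that package newly copied DNA, and their mRNAs are made mainly in S phase. Histones H2A, H2B, H3 and H4 form the nucleosome core and H1 binds the linker DNA between cores. Most of these mRNAs end not in a poly(A) tail but in a short stem-loop, which is bound by the stem-loop binding protein SLBP and is set by a cut that the U7 small nuclear ribonucleoprotein makes. Replacement histone genes lie outside the clusters, are made as polyadenylated mRNA and are used through the whole cell cycle. How the kit primed cDNA is not given, so what share of the stem-loop mRNAs was captured is unknown.

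Stem-loop letters were found in transcripts of 33 of the 72 members, and 1 site is shown for each of the 4 commonest forms found. They were read from GENCODE v29 transcripts (GRCh38), 5′ to 3′ with T for U, and the capitals mark the 16 bases of the stem-loop.
HIST1H2BG: actcaaaGGCTCTTTTCAGAGCCactcaag
HIST1H4E: aatcaaaGGCCCTTTTCAGGGCCgcccaca
HIST1H2BC: ccccaaaGGCTCTTTTAAGAGCCacccaga
HIST1H4I: ctaaaaaGGCCCTTTTTAGGGCCcctaagc

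The form shown for HIST1H2BG was found in 17 members, that of HIST1H4E in 5, that of HIST1H2BC in 5 and that of HIST1H4I in 3. A loop of 1 of 6 forms was found in 33 of the 72 members, against 0.6% of all protein-coding genes. The GENCODE transcripts of many of the others end before the place of a loop, so a missing match says only that these letters are not in that transcript. In 24 members a transcript also ran at least 100 bases past the loop.

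Promoters of 65 members matched a RefSeq entry (GRCh38.p14, 250 bases before to 50 after the start). Those of HIST1H2BG, HIST1H1C and HIST1H4E are shown because their genes carry the contrasts between lines and between histone types described below. Capitals mark the TATA box (searched as TATAAA), the CCAAT box, the octamer (ATTTGCAT) and the H1 box (AAACACA), on both strands.
HIST1H2BG, chr6:26216639-26216938, minus strand: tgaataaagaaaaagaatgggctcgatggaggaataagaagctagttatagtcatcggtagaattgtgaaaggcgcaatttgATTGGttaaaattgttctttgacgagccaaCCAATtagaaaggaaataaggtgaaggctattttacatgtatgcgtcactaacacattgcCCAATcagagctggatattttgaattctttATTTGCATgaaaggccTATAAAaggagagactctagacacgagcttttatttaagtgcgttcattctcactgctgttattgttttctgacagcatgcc
HIST1H1C, chr6:26056421-26056720, minus strand: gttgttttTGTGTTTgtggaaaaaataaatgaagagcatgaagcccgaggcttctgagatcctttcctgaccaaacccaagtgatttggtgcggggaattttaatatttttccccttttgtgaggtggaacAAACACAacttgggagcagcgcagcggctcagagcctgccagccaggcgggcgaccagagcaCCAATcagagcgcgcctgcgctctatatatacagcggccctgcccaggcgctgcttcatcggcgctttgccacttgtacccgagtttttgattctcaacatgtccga
HIST1H4E, chr6:26204360-26204659, plus strand: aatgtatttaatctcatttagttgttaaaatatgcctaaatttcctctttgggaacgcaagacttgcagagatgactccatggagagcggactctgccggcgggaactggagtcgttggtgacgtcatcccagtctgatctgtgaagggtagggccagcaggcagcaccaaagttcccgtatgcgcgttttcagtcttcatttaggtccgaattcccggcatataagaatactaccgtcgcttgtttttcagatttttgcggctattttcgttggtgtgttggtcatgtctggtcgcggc

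The H1 box was in all 6 H1 promoters, against 5.8% of all 27305 RefSeq promoters. The octamer was in 77.8% of H2B and 68.8% of H2A promoters, in 8.3% of H3 promoters and in no H1 or H4 promoter, against 1.8% of all. The 1 H3 promoter with it, that of HIST1H3D, has the same window as the H2A gene HIST1H2AD. Windows of H2A and H2B genes that start close together on opposite strands overlap, so the same octamer can be counted for both genes. CCAAT was in every matched H1, H2A, H2B and H3 promoter and in 23.1% of H4 promoters, against 35.7% of all. TATAAA was in 66.2% of member promoters, against 12% of all. The HIST1H4E window held none of the 4 motifs. These matches describe the windows and were not tied to any value below.

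Scaled by the GENCODE exon length of each gene, the member with the highest mean level over the 12 libraries was HIST1H4E, an H4 gene, at 174 CPM per kb. HIST1H2AL (H2A) followed at 117, HIST1H3I (H3) at 106, HIST1H2BK (H2B) at 103, HIST1H1C (H1) at 98 and HIST2H2AC (H2A) at 94 CPM per kb. The gene models the authors counted on are not given, so this order holds only for the GENCODE lengths. At the other end, HIST2H2AA3, HIST2H2AA4, HIST2H3A, HIST2H3C, HIST2H4A and HIST2H4B were listed at 0 in every library. These are copies duplicated almost letter for letter within the HIST2 cluster. At most 2.9% of their 50-base stretches were unique to their gene, and a read that maps to both copies may not have been counted, so their level is unknown. HIST1H2BA and HIST1H4G were also at 0 in every library, although every 50-base stretch of each is unique. Of the testis histones, HIST1H1T had up to 340 reads in CHAGO TICs, HIST1H2AA had 3 reads in CHAGO knockdown TICs and HIST3H3 had at most 3 reads in a library.

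Summed over all members, the level was lower in TICs than in parental cells of each line. The sum was 1290, 1110, 1200 and 333 CPM in TICs of H1703, H1299, CHAGO and CALU, against 2120, 1930, 1490 and 1190 CPM in their parental cells. TICs thus held 61.0%, 57.2%, 80.8% and 27.9% of the parental sum, and CALU lay furthest below. The mean log2 ratio was −0.92 ± 0.65 (SD, n = 4), and −0.61 without CALU, the 1 line with a log2 ratio below −1. The fall did not cover each cluster and type in each line. The HIST1 sum in TICs was 60.4%, 55.0%, 78.8% and 25.7% of the parental sum in H1703, H1299, CHAGO and CALU. The HIST2 sum was 81.9%, 123%, 102% and 46.6%, and the small HIST3 sum was higher in H1703. By type, the H2A, H2B and H4 sums were lower in each line. The H1 and H3 sums were lower in 3 lines and stood at 107% and 104% in CHAGO. In bulk RNA, fewer cells making these mRNAs and less of them per cell cannot be told apart.

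**Figure D1:**
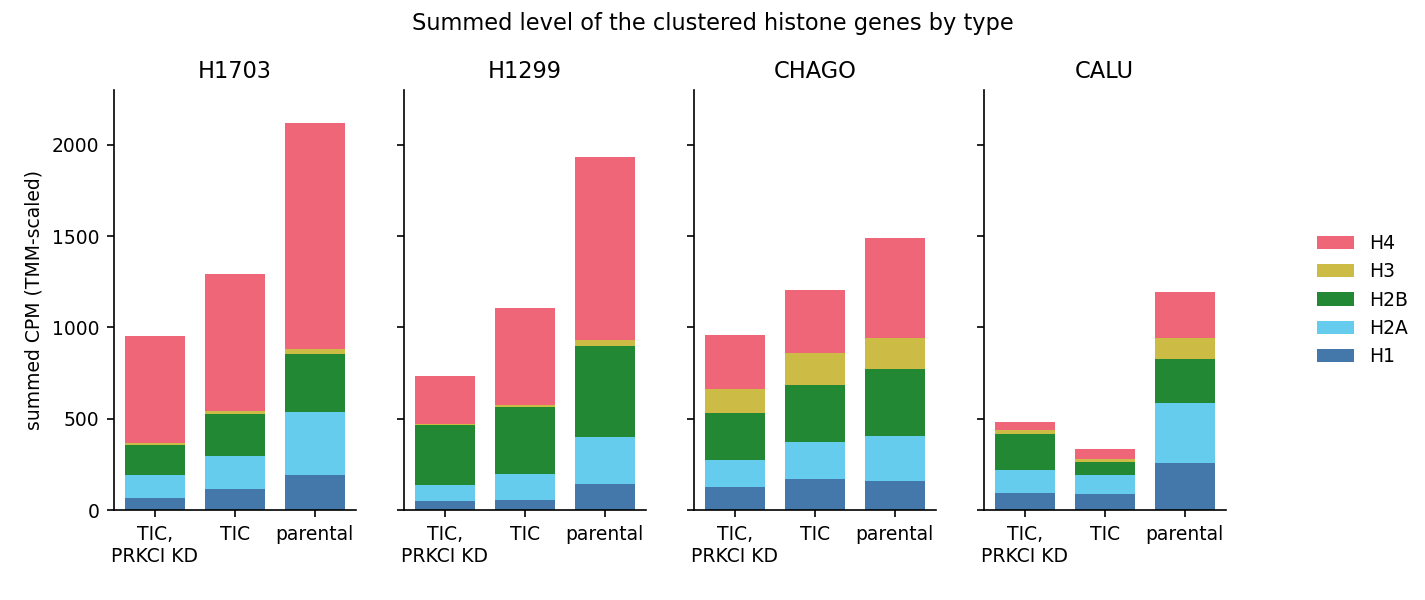
Summed CPM of the clustered histone genes in each library, with 1 panel per line and bars split by histone type (PRKCI knockdown TICs, TICs and parental cells from left to right). In each line the parental bar is the tallest, from 1190 CPM in CALU to 2120 CPM in H1703.

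Knockdown TICs held less than TICs in 3 lines and more in CALU. The sum was 956, 732, 956 and 481 CPM in knockdown TICs of H1703, H1299, CHAGO and CALU, which is 74.0%, 66.2%, 79.4% and 144% of the TIC sum. The mean log2 ratio was −0.21 ± 0.50 (SD, n = 4), so the groups did not separate beyond the spread between lines. It was −0.13 without H1703, −0.08 without H1299 and −0.45 without CALU. Against parental cells, the knockdown sum was 45.1%, 37.8%, 64.2% and 40.4% in the same order of lines (mean log2 ratio −1.12 ± 0.34, SD, n = 4). This last comparison shares its libraries with the other 2 and adds no independent support to them.

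The CALU value rests in part on HIST2H2BA, which GENCODE annotates as a transcribed pseudogene. It had 6651 reads in CALU knockdown TICs, 72 in CALU TICs and 19 in CALU parental cells, and at most 149 in any library of another line. Without it, the CALU knockdown sum was 117% of that of TICs and the mean log2 ratio over the lines was −0.29 ± 0.35 (SD, n = 4). Only 26.4% of its 50-base stretches are unique, so these reads may be shared with near-identical sequence. In the CALU knockdown library, the fibroblast markers DCN and LUM held 25.5 and 34.8 CPM, against 1.32 and 2.73 CPM in CALU TICs, PDGFRA 4.13 CPM, against 1.33 CPM, COL3A1 0 CPM, against 0.809 CPM, and COL1A1 301 CPM, against 1340 CPM. The part of other cells in this value was not tested.

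No member passed an edgeR adjusted p of 0.05 between TICs and parental cells, where 0.0286% of the 14008 tested genes did. At an unadjusted p under 0.05 there were 16 of 55 members, all lower in TICs, against 6.06% of all tested genes in that direction. DESeq2 called 3 members, all lower (HIST1H2AL, HIST1H3B and HIST1H4H), against 1.46% of its genes, and limma voom called 0 (1.21% of all genes in either direction). The fitted fold change was below 0 for 47 of 55 members, against 51.3% of all genes. The level was lower in TICs in 4 of 4 lines for 26 members, against 8.97% of all genes, and higher in 4 of 4 lines for 0, against 8.32%. The median log2 fold change was −1.08 for members and −0.02 for all tested genes.

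**Figure D2:**
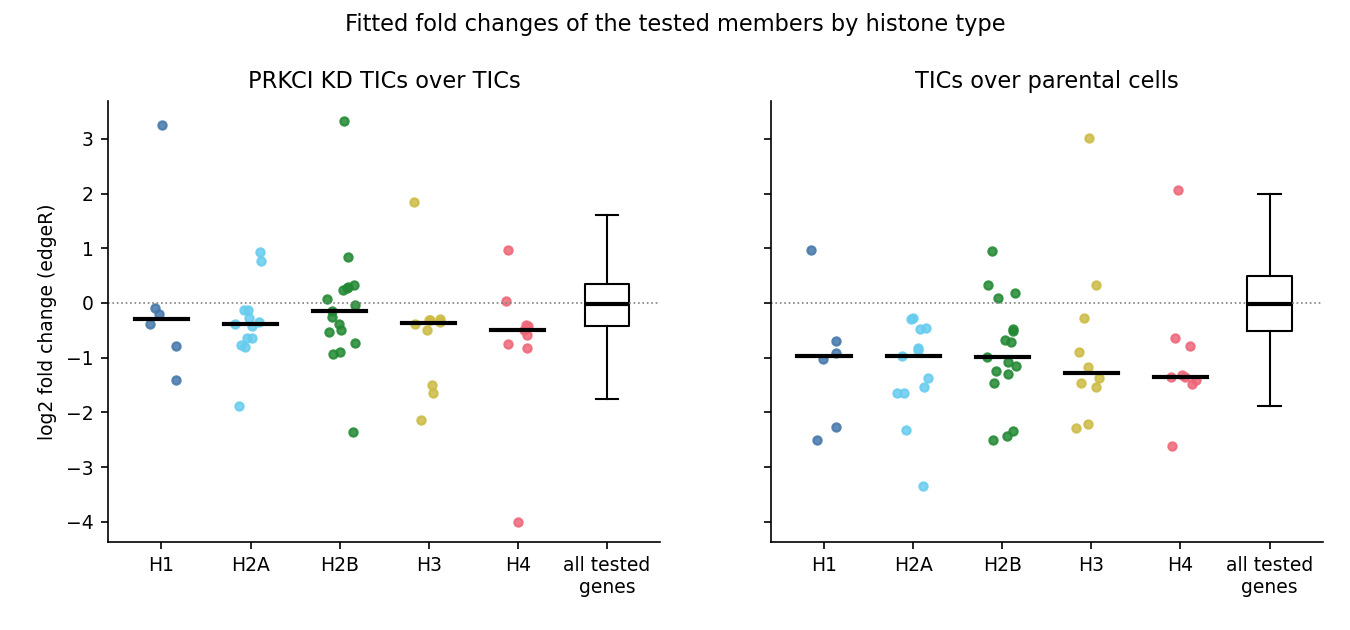
Fitted log2 fold changes of the 55 tested members by histone type, for PRKCI knockdown TICs over TICs and for TICs over parental cells. Points are genes, black bars are medians, and the box gives the quartiles of all 14008 tested genes with whiskers at the 5th and 95th percentiles. The type medians lie between −0.97 and −1.35 for TICs over parental cells and between −0.14 and −0.49 after knockdown.

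Every histone type had a median below 0 in TICs over parental cells. The medians were −0.97 for 6 H1 genes, −0.97 for 13 H2A genes, −0.98 for 17 H2B genes, −1.28 for 10 H3 genes and −1.35 for 9 H4 genes. All 13 tested H2A genes had fold changes below 0, and 9 of them were lower in each line. Among H4 genes, 8 of 9 were below 0 and 6 were lower in each line. Differences between types were not tested. By line, the median difference of members in log2(CPM + 1) was −0.31 for H1703, −0.51 for H1299, −0.32 for CHAGO and −1.16 for CALU.

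Linker histone H1 genes give a first example by type. HIST1H1C, in the list of members that can also be made as polyadenylated mRNA, held 48.8, 25.6, 99.1 and 44.0 CPM in TICs of H1703, H1299, CHAGO and CALU, against 70.5, 79.4, 98.1 and 127 CPM in parental cells. It was about level in CHAGO but lower in H1703, H1299 and CALU (log2 fold change −0.91, SE 0.31, edgeR adjusted p = 0.297). HIST1H1B held 2.61, 6.49, 12.7 and 0.145 CPM in TICs, against 12.2, 9.70, 17.3 and 3.88 CPM in parental cells, and was lower in each line (log2 fold change −2.27, SE 0.99, edgeR adjusted p = 0.407).

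For H2A, HIST1H2AL held 63.0, 26.8, 35.9 and 7.24 CPM in TICs of H1703, H1299, CHAGO and CALU, against 150, 59.9, 57.8 and 40.3 CPM in parental cells. It was lower in each line, although the 2 groups overlapped across lines (log2 fold change −1.37, SE 0.32). Its adjusted p was 0.197 in edgeR and 0.00626 in DESeq2. HIST1H2AG held 7.79, 3.97, 13.8 and 3.24 CPM in TICs, against 13.1, 16.3, 17.5 and 19.1 CPM in parental cells (log2 fold change −1.53, SE 0.54, edgeR adjusted p = 0.314).

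For H3, HIST1H3B held 4.01, 2.16, 5.65 and 1.0 CPM in TICs, against 10.4, 10.5, 13.3 and 16.5 CPM in parental cells. All 4 TIC values lay below all 4 parental values (log2 fold change −2.21, SE 0.65). Its adjusted p was 0.245 in edgeR and 0.0165 in DESeq2.

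For H4, HIST1H4H held 245, 179, 76.4 and 26.3 CPM in TICs, against 360, 410, 160 and 130 CPM in parental cells, lower in each line (log2 fold change −1.31, SE 0.35). Its adjusted p was 0.214 in edgeR and 0.0238 in DESeq2. HIST1H4B held 29.9, 16.7, 22.1 and 13.0 CPM in TICs, against 63.5, 52.1, 38.6 and 57.7 CPM in parental cells, and the groups did not overlap (log2 fold change −1.48, SE 0.46, edgeR adjusted p = 0.262). HIST1H4C held 63.3, 22.0, 10.6 and 10.8 CPM in TICs, against 81.0, 43.8, 38.5 and 52.4 CPM in parental cells, where H1703 TICs stood above 3 of the parental libraries (log2 fold change −1.35, SE 0.44, edgeR adjusted p = 0.280).

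The 6 members in the poly(A) list summed to 61.9%, 80.4%, 91.8% and 32.7% of the parental level in TICs of H1703, H1299, CHAGO and CALU, a mean log2 ratio of −0.69 ± 0.66. The other members together held 60.9%, 52.1%, 77.6% and 25.1% in the same order, a mean log2 ratio of −1.0 ± 0.70 (SD, n = 4 each). Within each line the poly(A) list thus kept the larger share, only narrowly in H1703. This difference was not tested. HIST1H2AC was lower in each line (log2 fold change −0.82, SE 0.29, edgeR adjusted p = 0.317). The fold changes of the H2B genes HIST1H2BC, HIST1H2BD and HIST1H2BK were −0.68, −0.98 and −0.71, each lower in 3 lines. HIST2H2BE, also an H2B gene, was the exception at 0.10 (SE 0.44), with 4.55, 53.4, 50.5 and 3.84 CPM in TICs of H1703, H1299, CHAGO and CALU, against 5.64, 21.4, 44.8 and 7.97 CPM in parental cells.

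Between knockdown TICs and TICs, no member passed the threshold in edgeR (0.0143% of all genes did), DESeq2 (0.0785%) or limma voom (0.0785%). At an unadjusted p under 0.05 there were 2 of 55 members in edgeR, against 4.28% of all genes, so their share was near the background. Both were lower in knockdown TICs. HIST2H2AB (H2A) held 6.87, 3.22, 1.78 and 3.0 CPM in knockdown TICs of H1703, H1299, CHAGO and CALU, against 15.5, 7.62, 16.1 and 14.4 CPM in TICs, and the groups did not overlap (log2 fold change −1.89, SE 0.51, edgeR adjusted p = 0.980). HIST1H1D (H1) held 29.6, 3.18, 0.172 and 6.48 CPM in knockdown TICs, against 49.9, 8.94, 1.24 and 11.2 CPM in TICs, with a wide overlap because its level differed between lines (log2 fold change −1.41, SE 0.43, edgeR adjusted p = 0.980).

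Fitted fold changes after knockdown were below 0 for 42 of 55 members, against 50.9% of all genes, with a median of −0.39 against −0.01 (−0.22 without H1703). The level was lower in 4 of 4 lines for 5 members, against 7.14% of all genes. These were HIST2H2AB, HIST1H1D, HIST1H2AI, HIST1H1B and HIST1H2AG. HIST1H2AI, HIST1H1B and HIST1H2AG had log2 fold changes of −0.64, −0.78 and −0.39 (edgeR adjusted p = 0.981 each). HIST4H4 was the 1 member higher in each line, against 7.23% of all genes, at 1.51, 2.78, 3.03 and 0.691 CPM in knockdown TICs, against 0.990, 2.36, 0.661 and 0.519 CPM in TICs. By type, the H4 sum was lower in each line after knockdown, at 78.7%, 48.6%, 86% and 83.5% of the TIC sum in H1703, H1299, CHAGO and CALU (mean log2 ratio −0.47 ± 0.39, SD, n = 4). The sums of the other 4 types were each lower in 3 lines and higher in CALU. Yet 0 of the 9 tested H4 genes were lower in each line. In CHAGO, HIST1H4E held 140 CPM in knockdown TICs, against 218 CPM in TICs, and HIST1H4L 3.96 CPM, against 9.09 CPM. HIST1H4H, HIST1H4C and HIST1H4B were higher there, at 86.7, 27.6 and 22.9 CPM, against 76.4, 10.6 and 22.1 CPM.

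Between knockdown TICs and parental cells, which reuses the libraries above, edgeR called 0 members (0.0357% of all genes), DESeq2 called 11 (3.14%) and limma voom called 2 (1.09%). At an unadjusted p under 0.05 there were 25 of 55 in edgeR, all lower in knockdown TICs, against 5.29% of all genes in that direction. Fitted fold changes were below 0 for 49 of 55, against 52.9% of all genes, and 29 were lower in 4 of 4 lines, against 9.11%. The median was −1.51, against −0.05 for all genes. HIST1H4H held 141, 67.5, 86.7 and 19.4 CPM in knockdown TICs of H1703, H1299, CHAGO and CALU (log2 fold change over parental cells −1.91, SE 0.36), with an adjusted p of 0.139 in edgeR, 0.000178 in DESeq2 and 0.0234 in limma voom. HIST1H4E was the other member called by limma voom. HIST2H2BE was the 1 member higher in each line (log2 fold change 0.93, SE 0.43, edgeR adjusted p = 0.477), against 8.1% of all genes.

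Genes that work with histones or with S phase were described from fixed lists. None of their members was called by edgeR in either comparison. All 20 S-phase genes had fold changes below 0 in TICs over parental cells (median −1.14), as had 51.3% of all genes. Of the 20, 12 were lower at an unadjusted p under 0.05, against 6.06% of all genes, and DESeq2 called 4 lower, against 1.46%. MCM3, a subunit of the replicative helicase, held 138, 53.0, 86.9 and 27.1 CPM in TICs of H1703, H1299, CHAGO and CALU, against 318, 120, 172 and 120 CPM in parental cells. It was lower in each line, although H1703 TICs stood above the parental libraries of H1299 and CALU (log2 fold change −1.31, SE 0.32, adjusted p = 0.197 in edgeR and 0.0163 in DESeq2). MCM4, another subunit, had a log2 fold change of −1.11 and was also lower in each line.

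The S-phase list did not move with the histone sum in every line. Its sum in TICs was 70.3%, 35.0%, 109% and 25.6% of the parental level in H1703, H1299, CHAGO and CALU, beside 61.0%, 57.2%, 80.8% and 27.9% for the clustered histone genes. In CHAGO the histone sum was thus lower and the S-phase sum was not. After knockdown the S-phase sum was 73.1%, 112%, 107% and 136% of that in TICs, and 10 of 20 genes had fold changes below 0 (median 0.00), beside 42 of 55 histone members. The part of S-phase content in the histone values was not tested.

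SLBP, which binds the stem-loop shown above, held 44.5, 78.0, 84 and 52.5 CPM in TICs of H1703, H1299, CHAGO and CALU, against 104, 99.5, 84.9 and 111 CPM in parental cells (log2 fold change −0.68, SE 0.24, edgeR adjusted p = 0.314). It was lower in each line, by under 1 CPM in CHAGO. In knockdown TICs it held 68.2, 115, 105 and 96.8 CPM, above TICs in each line (log2 fold change 0.58, SE 0.24, edgeR adjusted p = 0.980). LSM11, a subunit of the U7 particle, had a log2 fold change of −2.48 in knockdown TICs over TICs (SE 0.93, lower in 3 lines, edgeR adjusted p = 0.980). In TICs over parental cells it was 1.83 (SE 0.90, higher in 3 lines, edgeR adjusted p = 0.470). LSM11 was low, at 0.0772, 0.574, 1.45 and 2.78 CPM in knockdown TICs, against 1.22, 7.62, 1.41 and 8.79 CPM in TICs. Parental cells held 0.109, 1.46, 1.73 and 4.76 CPM. In H1703 knockdown TICs, 3 reads would be 0.116 CPM. NPAT, the activator of histone gene transcription, had log2 fold changes of 0.26 in TICs over parental cells and 0.04 in knockdown TICs over TICs. It was named after its values were seen. Over the 21 histone mRNA factors, 15 were lower in TICs than in parental cells (median −0.16) and 9 were lower after knockdown (median 0.04).

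Replacement histones had a median of −0.10 in TICs over parental cells, with 7 of 11 tested genes below 0. H1F0, the replacement linker histone H1.0, held 137, 34.3, 248 and 84.2 CPM in TICs of H1703, H1299, CHAGO and CALU, against 35.5, 22.6, 149 and 39.1 CPM in parental cells. It was higher in each line (log2 fold change 1.03, SE 0.33, edgeR adjusted p = 0.272). In knockdown TICs it held 80.5, 9.97, 138 and 49.8 CPM, below TICs in each line (log2 fold change −0.98, SE 0.32, edgeR adjusted p = 0.980). H2AFZ and CENPA, the variants H2A.Z and centromeric H3, had log2 fold changes of −0.85 and −1.05 in TICs over parental cells and were lower in 3 lines, CHAGO being the other.

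Among the histone chaperones, 14 of 20 were below 0 in TICs over parental cells (median −0.37). SSRP1, a subunit of FACT, was the 1 called by DESeq2 (log2 fold change −1.07, SE 0.29, adjusted p = 0.226 in edgeR and 0.0401 in DESeq2). SUPT16H, the other subunit of FACT, and NASP, which carries H3 and H4, had log2 fold changes of −0.59 and −0.54 and were lower in each line. After knockdown, 12 of 20 chaperones were below 0 (median −0.07).

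**Figure D3:**
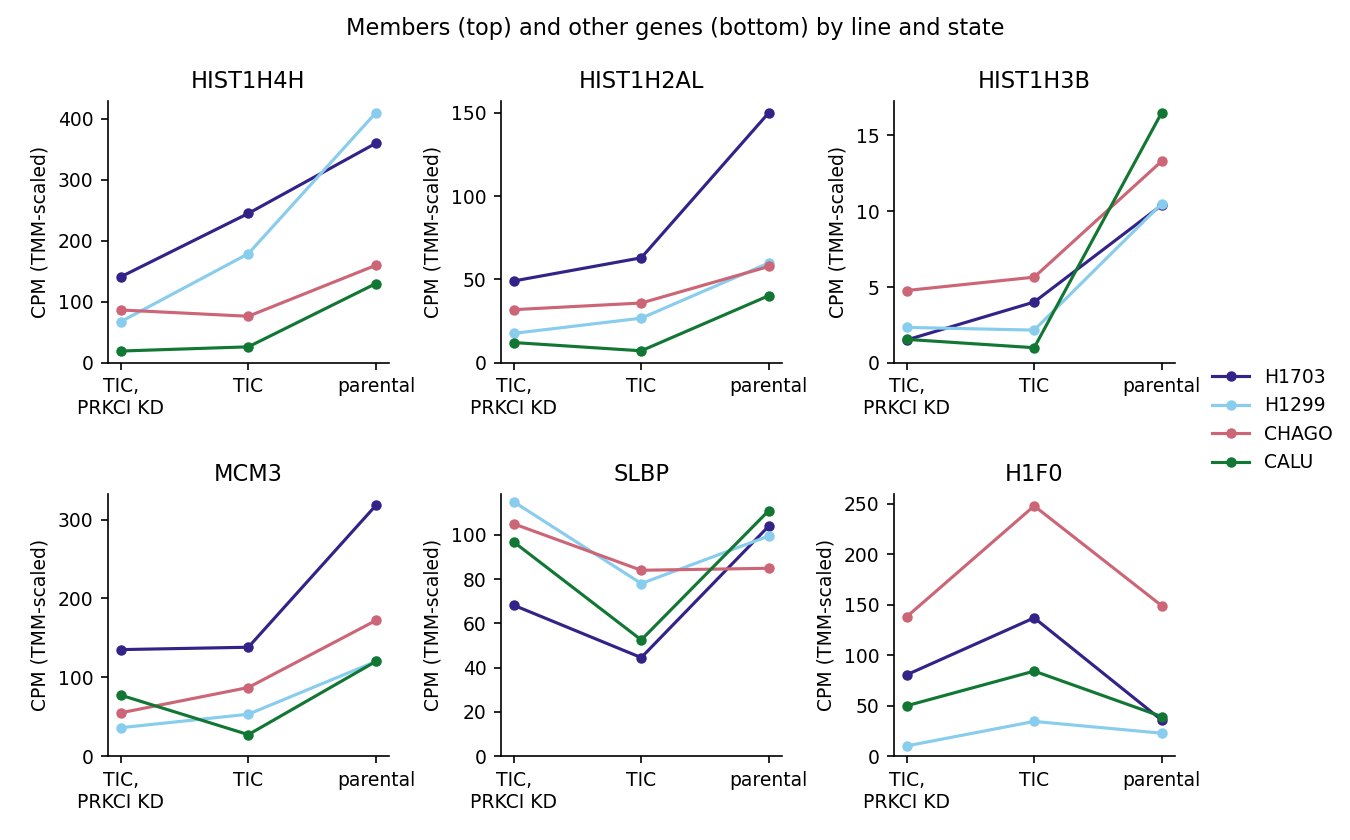
CPM of 3 clustered histone genes (top) and of MCM3, SLBP and H1F0 (bottom) in PRKCI knockdown TICs, TICs and parental cells of each line, with 1 coloured line of points per cell line. HIST1H4H, HIST1H2AL, HIST1H3B and MCM3 are highest in parental cells of each line, SLBP is lowest in TICs of each line and H1F0 is highest in TICs of each line.

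More members passed the threshold between cell lines than between states. The same held for all tested genes, with 16.9% to 28.4% called per line against 0.0143% to 0.0357% per state comparison. Each line was compared with the mean of the other 3, with its 3 states as replicates, which share a cell line. In edgeR, 17 of 55 tested members (30.9%) were called in H1703, where 25.5% of all genes were. Called higher were 12 members (21.8%), against 12.9% of all genes. In H1299, 12 members (21.8%) were called, against 16.9% of all genes, and 10 (18.2%) were higher, against 11.2%. In CHAGO, 20 (36.4%) were called, against 28.4%, and 19 (34.5%) were higher, against 17.5%. In CALU, 23 members (41.8%) were called, against 25.5% of all genes, and 17 (30.9%) were lower, against 9.27%. Without the TIC libraries, 9 of the 46 members then tested were called for H1703 (11.8% of all genes were), 6 for H1299 (5.48%), 12 for CHAGO (12.3%) and 9 for CALU (11.2%). The comparisons share libraries, since each line is part of the mean for the others.

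Several members were present in some lines and near absent in others. A rule chosen after the data were seen asked for at least 5 CPM in each of the 3 libraries of a line and under 0.5 CPM in each of the 3 libraries of another. It was met by 8 of the 30 members that reached 5 CPM in each library of a line (26.7%), against 9.68% of 9831 genes that did so. CALU was a line under 0.5 CPM for 6 of the 8, together with CHAGO for HIST1H2BH. This was not tested.

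HIST1H4E, first of all members in mean level per length, had 1, 0 and 1 reads in CALU knockdown TICs, TICs and parental cells. In the same order of states it had 9492, 9054 and 19512 reads for H1703, 3905, 9600 and 18817 for H1299, and 10613, 17851 and 19234 for CHAGO (CALU against the other lines, edgeR adjusted p = 2.32e-07). HIST1H2BG, whose promoter is shown above, had 0, 0 and 2 reads in CALU. Its divergent partner HIST1H2AE, which starts 283 bases away, had 0, 0 and 1. In the other lines HIST1H2BG had 238 to 5588 reads and HIST1H2AE 400 to 1888. HIST1H2BF had 1, 0 and 3 reads in CALU and 247 to 3928 in the other lines.

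These 4 genes are neighbours in the HIST1 cluster. In the stretch of 13 consecutive members from HIST1H3D to HIST1H3G, the 12 other than HIST1H1D had 9 reads in all in the 3 CALU libraries, against 49316 in H1703, 52451 in H1299 and 69290 in CHAGO. HIST1H1D lies inside this stretch and had 4187 reads in CALU, and HIST1H2BI and HIST1H4H, next after the stretch, had 727 and 14850. Within the same stretch HIST1H3F, HIST1H2BH and HIST1H3G reached at most 0.0925, 0.357 and 0 CPM in CHAGO, against 13.3, 49.5 and 2.57 CPM in H1703. Why these genes are near absent was not tested. The order of genes comes from GENCODE, and the count files carry no coordinates.

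**Figure D4:**
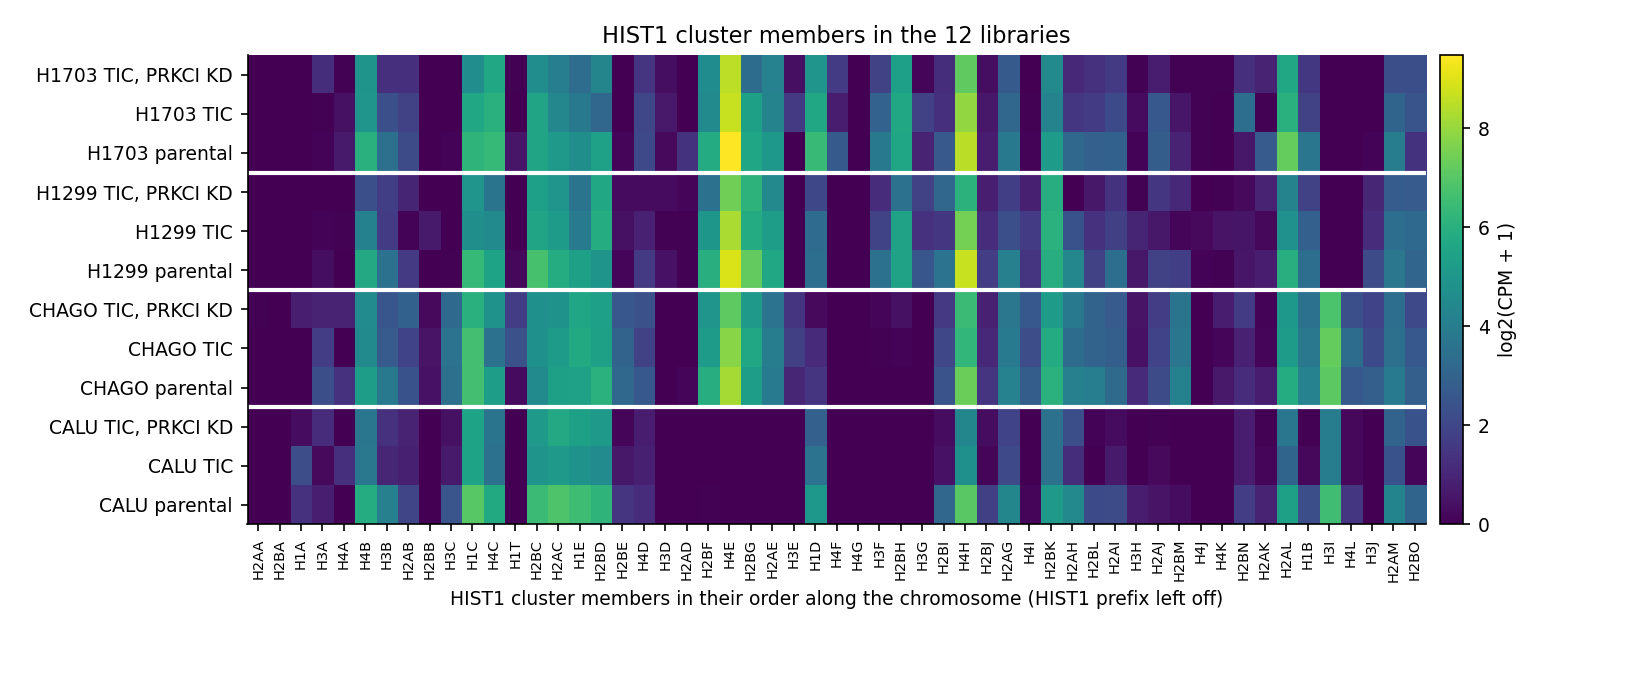
Level of the 55 HIST1 members as log2(CPM + 1), in their order along chromosome 6 from left to right, with 1 row per library grouped by line (PRKCI knockdown TICs, TICs and parental cells from top to bottom in each line). The 3 CALU rows are dark from H3D to H3G except at H1D, where the highest CALU value is 32.3 CPM, and H3I is dark in H1703 and H1299. H4G, inside that stretch, had no read in any library.

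The H3 genes HIST1H3I and HIST1H3C were near absent in H1703 and H1299 instead. HIST1H3I had no read in any of the 6 libraries of H1703 and H1299, where 3 reads would be 0.0780 to 0.135 CPM. It held 110, 151 and 134 CPM in CHAGO and 14.9, 15.1 and 94.7 CPM in CALU, in knockdown TICs, TICs and parental cells (CHAGO against the other lines, edgeR adjusted p = 0.00018). HIST1H3C had at most 2 reads in a library of H1703 or H1299, 632 to 912 in CHAGO and 24 to 402 in CALU. The H3 sum followed HIST1H3I, at 129, 177 and 170 CPM in CHAGO and 6.18 to 31.0 CPM in the libraries of H1703 and H1299. HIST1H2BM was present in CHAGO at 11.4, 12.1 and 16.7 CPM and reached at most 0.242 CPM in CALU.

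The share of H1 reads from HIST1H1D stood apart in H1703, where it was high, and in CHAGO, where it was low, while H1299 and CALU overlapped. Line was not tested against state. HIST1H1D took 45.4%, 43.6% and 43.8% of the summed H1 CPM in knockdown TICs, TICs and parental cells of H1703, 6.77%, 16.1% and 6.93% in H1299, 0.136%, 0.729% and 1.05% in CHAGO, and 7.03%, 13.0% and 12.5% in CALU. Its level in H1703 was above that in the other lines (edgeR adjusted p = 0.000124), and its level in CHAGO was below (edgeR adjusted p = 0.00028). HIST1H1C took 36.5% to 63.3% of H1 CPM over the 12 libraries and HIST1H1E 11.5% to 44.7%. These are shares of reads and were not scaled by length.

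**Figure D5:**
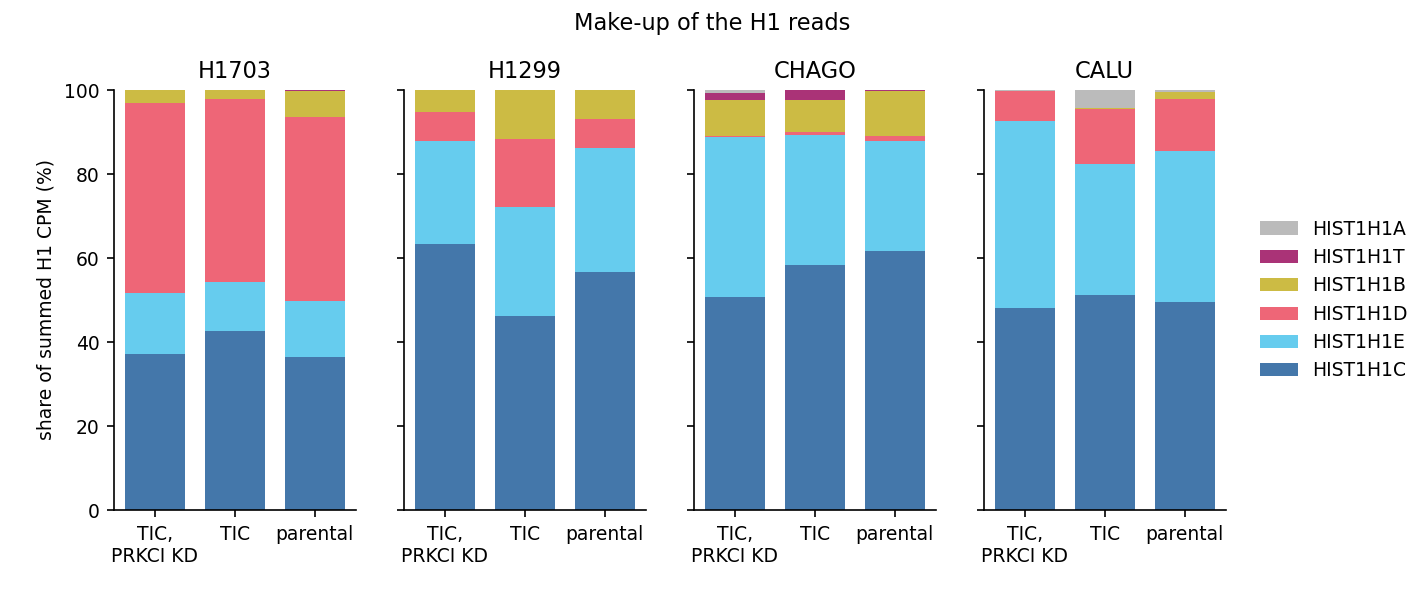
Share of the summed H1 CPM taken by each of the 6 H1 genes in each library, with 1 panel per line and PRKCI knockdown TICs, TICs and parental cells from left to right. HIST1H1D takes 43.6% to 45.4% in H1703 and at most 1.05% in CHAGO.

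GENCODE places 12 pairs of members head to head with starts at most 500 bases apart, each an H2A gene beside an H2B gene. Both genes were tested in 9 pairs. Both had fold changes below 0 in 8 pairs in TICs over parental cells and in 7 pairs in knockdown TICs over TICs. The other pair in TICs over parental cells was HIST2H2BE with HIST2H2AC. Taken singly, 47 and 42 of all 55 tested members were below 0 in these comparisons. Whether paired genes moved together more than other members was not tested. Whether reads were assigned by strand is not given. Reads from overlapping genes on opposite strands therefore cannot be told apart.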

How the data were processed

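RNA extraction used a Qiagen RNeasy kit and library preparation used NuGEN reagents, per the labels' protocols. CASAVA 1.4, TopHat 1.4, HTSeq 0.5.3p3 and genome build hg19 are named in the submitters' processing notes, without their settings; the sources used here give neither gene models nor strand handling. The deposited raw table holds whole read counts per gene. The mode-normalized values deposited beside it are a score: each count times 1 factor per library, rounded.

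In R 4.3.3, edgeR 4.0.16 (filterByExpr, TMM, robust quasi-likelihood) was fitted to 14008 genes of all 12 libraries with terms for line and state, 6 residual degrees of freedom and p-values adjusted after Benjamini and Hochberg across every tested gene, called at 0.05. Tests were two-sided. DESeq2 1.42.0 and limma 3.58.1 (voom) were alternatives. Intervals are standard errors of the fit or SDs over lines. A limit of 3 reads stands for 0 reads and covers counting error only. Libraries pair by cell line. After removal of state means, libraries of the same line correlated across genes at 0.553 to 0.760 (12 pairs). The 36 pairs that differed in both line and state gave −0.414 to −0.0601. Removing the state means itself pulls these below 0 when same-line pairs are positive. Their sign is therefore no separate support for the pairing. The CALU knockdown column is named 1 letter off its sample title, and its r was 0.918 to the CALU TIC library and no higher than 0.738 to any library of the other lines.

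Members, lists and tests were chosen with earlier results of these data known. Named genes were PRKCI, the 12 members of highest mean CPM, up to 6 members of smallest p moving the same way in 4 lines per state comparison, up to 3 called members per line, the poly(A), testis and near-identical members, and up to 4 genes of smallest p per other list. Not all are printed. Others are described as chosen after their values were seen, as were the rule of 5 and 0.5 CPM, the stretch of 13 genes and HIST2H2BA. Unique stretches, stem-loops, exon lengths and gene order come from GENCODE v29, and promoters from RefSeq GRCh38.p14. The fit was tested on simulated counts. The design text also names parental PRKCI knockdown cells, not analysed here. A gene of the S-phase list is counted but not reported here by name.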

Additional observations from a re-analysis of the deposited data

Results flagged for a closer look

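Within each state, the 4 lines were searched for a library far from the other 3 (Dixon's test at its 95% critical value), in the sums by type and in named members with at least 5 CPM in some library of the state. A library stood apart in 5 of 84 such groups (5.95%), and chance alone flags about 1 in 20. The H3 sum of CHAGO stood above the others, at 129 CPM in knockdown TICs, against 6.18 to 18 CPM in the other lines, and at 177 CPM in TICs, against 9.01 to 16.9 CPM. HIST1H3I of CHAGO, which is part of that sum, held 110 CPM in knockdown TICs, against 0 to 14.9 CPM in the other lines, and 151 CPM in TICs, against 0 to 15.1 CPM. HIST1H2BF of CALU stood below the others in parental cells, at 0.0346 CPM, against 55.2 to 61.7 CPM.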

How the results depend on the processing

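Of 159 recomputed counts, medians and sums, 144 stayed within 1.5 times the main count or within 1 SD over lines. DESeq2 called 3 members in TICs over parental cells and 11 in knockdown TICs over parental cells, and limma voom called 2 in the second comparison, where edgeR called 0 in each. The median of −1.51 in knockdown TICs over parental cells became −1.05 with no replicate block (the line term), which changed no other count or median beyond these limits, −1.09 with limma voom and −0.99 on the mode-normalized values. With each line left out in turn, or the CALU knockdown library, the count of called members stayed at 0 in all 3 comparisons. It was already 0 in the main fits and PRKCI itself lost its call without any 1 line, so this count says little about stability. Over the same settings, the median ranged from −1.29 to −0.77 in TICs over parental cells, from −0.47 to −0.22 in knockdown TICs over TICs (−0.22 without H1703) and from −1.71 to −1.17 in knockdown TICs over parental cells (−1.17 without CALU). The sums ranged from −1.12 to −0.61, from −0.45 to −0.08 and from −1.29 to −1.03 in the same order of comparisons. Without the TIC libraries, 9 members were called for H1703, 6 for H1299, 12 for CHAGO and 9 for CALU; without the knockdown libraries 9 in H1703 and 9 in CALU; and without the parental libraries 15 in CALU. These fits have fewer libraries, and called 11.8%, 5.48%, 12.3% and 11.2% of all genes for the 4 lines without TICs, 11.3% and 12.6% without knockdown and 23% without parental libraries. For named genes, 1035 of 1065 recomputed values kept direction and side of the threshold. A sign was turned in 4: HIST1H2AC was 0.05 with limma voom, H2AFV 0.01 without H1703 and HIST1H2BK 0.03 without CHAGO in knockdown TICs over TICs, and HIST2H2BE −0.31 without H1299 in TICs over parental cells. PRKCI lost its call in 9 of 15 settings, with log2 fold changes of −3.38 to −2.65 and adjusted p up to 0.666. The 120 recomputed values of members named between lines all kept their call. The other named genes except PRKCI were uncalled in the main fit, so staying uncalled says little about them. The causes were not tested. Unequal depth between pairs of lines limits low members most in H1703 and H1299.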
